A study of Mus musculus with 4 samples.

Results

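Itgam, Cx3cr1, Csf1r, Cd14, Lyz2, Cd68 and Mrc1 are markers of macrophages, and C1qa, C1qb and C1qc encode the 3 chains of complement C1q, which macrophages make. They were taken by symbol from a table of 50600 genes measured in colonic epithelial cells with and without Mettl14. The set was chosen by values of the KO against WT comparison itself, in which Itgam, Cx3cr1 and C1qa rose, so the KO against WT values of these 10 genes are a description and carry no test. The symbols stood on 11 rows. All 10 genes passed the filter on low counts, which left 14861 genes. The remaining row carries the symbol Itgam and an identifier (ENSMUSG00000108596) that GENCODE release M21 names Gm49368. It had 11 and 4 counts in the KO libraries, against 4 and 7 in the WT libraries, and was not tested.

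The study compared 2 Mettl14 knockout (KO) libraries with 2 wild-type (WT) libraries, all of primary colonic epithelial cells of C57BL/6 mice. Mettl14 encodes a subunit of the enzyme complex that places N6-methyladenosine (m6A) on mRNA. The sources used here do not give how the deletion was made and in which cells, the age of the mice, any treatment, or whether a library pooled several animals. The titles of all 4 libraries end in the same code, C-2W, whose meaning the labels do not state. Mettl14 was at 3.99 and 3.94 CPM (counts scaled by library size with TMM factors) in KO replicates 1 and 2, against 11.7 and 8.67 CPM in WT replicates 1 and 2. Its log2 fold change of -1.36 (SE 0.22, edgeR adjusted p = 0.0504) fell just outside the threshold of 0.05. Total counts were 22730188 and 22780451 in the KO libraries and 22136440 and 24991060 in the WT libraries. By Xist and Y-linked genes, KO replicate 2 and WT replicate 1 were male, and KO replicate 1 and WT replicate 2 were female. KO replicate 2 stood apart by its fibroblast and haemoglobin transcripts, and WT replicate 1 by its low leukocyte transcripts, with values given below.

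Macrophages of the colon lie mostly in the lamina propria beneath the epithelium and are renewed from blood monocytes. There they engulf bacteria and dying cells, and they depend on signalling through the receptor that Csf1r encodes. C1q, built of A, B and C chains, is the part of the classical complement pathway that recognises antibody complexes and dying cells. In many tissues macrophages are its main source. Monocytes, neutrophils or dendritic cells also express several of the 10 genes.

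In the KO libraries, 3 of the 10 genes rose over all genes, namely the adhesion gene Itgam, the chemokine receptor gene Cx3cr1 and the complement gene C1qa. The other C1q genes and Csf1r lay between log2 fold changes of 1.13 and 1.29 and did not pass the test. Cd14, Lyz2, Cd68 and Mrc1 lay lower, between 0.27 and 0.93. The median log2 fold change of the 10 genes was 1.11, beside -0.01 over all 14861 genes tested. Over all genes tested, 255 were called higher (edgeR adjusted p under 0.05), or 1.72%, and 282 lower. With library size alone as the scaling the split was 604 higher and 186 lower. Both KO libraries stood above both WT libraries for 7 of the 10 genes, against 31.1% of all genes tested. Since this contrast chose the set, nothing is read from these counts. The genes nearest to the threshold were C1qa inside it (edgeR adjusted p = 0.0465) and C1qc outside it (edgeR adjusted p = 0.0532). The count of 3 became 2, with C1qa lost, when mitochondrially encoded genes were left out. It became 0 without KO replicate 1 and 0 without KO replicate 2, where no gene of the table was called, 5 without WT replicate 1 and 7 without WT replicate 2. In bulk RNA, more cells of a type and more RNA per cell cannot be told apart.

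**Figure D1:**
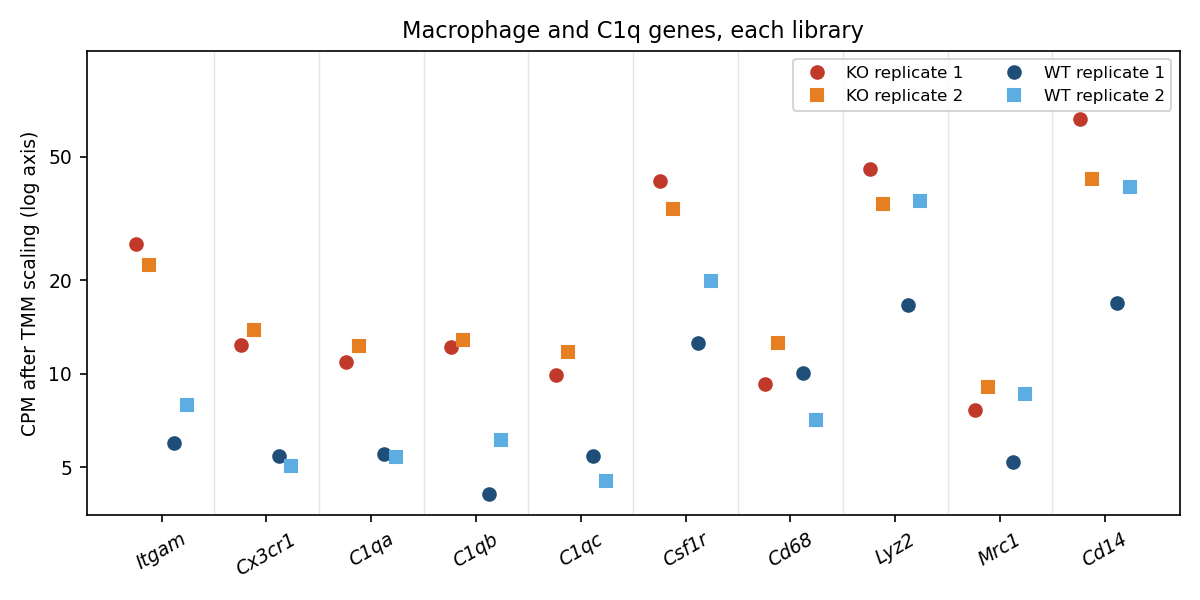
Level of each gene in each library, in CPM after TMM scaling on a log axis, with 1 point per library and no averaging. The KO points lie above the WT points for Itgam, Cx3cr1, the 3 C1q genes, Csf1r and Cd14, and overlap them for Cd68, Lyz2 and Mrc1.

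The receptors of the cell surface come first. Itgam (ENSMUSG00000030786, chromosome 7, 128062640 to 128118491, plus strand, GRCm38) encodes the alpha chain of Mac-1, an integrin that binds ICAM-1 and fragments of complement C3. It was at 26.3 and 22.5 CPM in the KO libraries, against 5.97 and 7.91 CPM in the WT libraries. The KO libraries were thus clear of the WT libraries, by a log2 fold change of 1.81 (SE 0.19) that was the highest of the set. Exons of Itgam overlap those of Gm49368 on the same strand, so reads of the shared exons may have been split between these rows.

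Cx3cr1 (ENSMUSG00000052336, chromosome 9, 119901616 to 120069879, minus strand) encodes the fractalkine receptor, which marks resident macrophages of the gut. Its level was 12.4 and 13.9 CPM in the KO libraries, against 5.44 and 5.05 CPM in the WT libraries. The replicates of each genotype lay close together, and the log2 fold change was 1.32 (SE 0.16). Csf1r (ENSMUSG00000024621, chromosome 18, 61100598 to 61132149, plus strand), the receptor for the macrophage growth factors CSF-1 and IL-34, was at 41.9 and 34.1 CPM in the KO libraries, against 12.5 and 19.9 CPM in the WT libraries. The groups did not overlap, but each spread by over 5 CPM (38.0 ± 5.58 CPM in KO and 16.2 ± 5.25 CPM in WT, SD, n = 2 each), and the log2 fold change was 1.22 (SE 0.26). Exons of Csf1r overlap those of Hmgxb3 on the opposite strand, and reads there cannot be assigned where counting ignores strand.

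The 3 C1q genes lie side by side on the minus strand of chromosome 4, within 18.7 kb (136880129 to 136898803), in the order C1qb, C1qc and C1qa by rising coordinate. C1qa (ENSMUSG00000036887, 136895917 to 136898803), the A chain, was at 10.9 and 12.3 CPM in the KO libraries, against 5.49 and 5.39 CPM in the WT libraries. Its WT values were nearly equal, and the log2 fold change was 1.09 (SE 0.16). C1qb (ENSMUSG00000036905, 136880129 to 136886187), the B chain, was at 12.2 and 12.8 CPM in the KO libraries, against 4.10 and 6.10 CPM in the WT libraries. For this chain the WT libraries were the more variable, and the log2 fold change was 1.29 (SE 0.24). C1qc (ENSMUSG00000036896, 136889804 to 136893065), the C chain, was at 9.93 and 11.8 CPM in the KO libraries, against 5.44 and 4.50 CPM in the WT libraries, a log2 fold change of 1.13 (SE 0.20). For each chain both KO libraries were above both WT libraries.

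The chains kept similar proportions of the C1q counts in 3 of the 4 libraries. C1qb made up 36.9% of 745 C1q counts in KO replicate 1 (95% exact binomial interval 33.4 to 40.5) and 34.7% of 947 in KO replicate 2 (31.7 to 37.9). In WT replicate 2 it made up 38.2% of 380 (33.3 to 43.3), and in WT replicate 1 only 27.2% of 312 (22.4 to 32.5). The interval of WT replicate 1 lay below those of KO replicate 1 and WT replicate 2 and overlapped that of KO replicate 2. C1qa held 33.0% and 33.4% in the KO libraries, against 36.5% and 33.7% in the WT libraries, with overlapping intervals. These intervals treat each count as an independent molecule and leave out the spread between samples. Reads amplified by PCR are not independent, so the intervals may be too narrow, and a gap between them is no test. The neighbour on the low-coordinate side, the ephrin receptor gene Ephb2, also rose, at 61.5 ± 5.67 CPM in KO and 32.3 ± 1.91 CPM in WT (SD, n = 2 each). Epha8, on the other side, had 0 counts in every library, which allows up to 3 counts, or 0.133 and 0.117 CPM in the KO libraries and 0.145 and 0.126 CPM in the WT libraries.

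Promoter sequences were matched for 7 of the 10 genes (Itgam, Cx3cr1, C1qb, C1qc, Cd68, Lyz2 and Mrc1) in RefSeq, build GRCm38.p6. The 4 shown belong to the genes whose KO libraries were clear of the WT libraries and for which a sequence was matched. Each gives the 250 bases before the start annotated in RefSeq, 5′ to 3′ on the strand of the gene. For Cx3cr1 and C1qc that start lies inside the GENCODE coordinates given above. The whole window of Cx3cr1 and part of that of C1qc therefore fall within those coordinates. Capitals mark GAGGAA or its reverse complement TTCCTC, letters found in many sites of PU.1, the factor encoded by Spi1 that specifies macrophages. C1qb lies at chr4:136886201-136886450 (minus strand), C1qc at chr4:136892915-136893164 (minus), Itgam at chr7:128062390-128062639 (plus) and Cx3cr1 at chr9:120068297-120068546 (minus).
C1qb: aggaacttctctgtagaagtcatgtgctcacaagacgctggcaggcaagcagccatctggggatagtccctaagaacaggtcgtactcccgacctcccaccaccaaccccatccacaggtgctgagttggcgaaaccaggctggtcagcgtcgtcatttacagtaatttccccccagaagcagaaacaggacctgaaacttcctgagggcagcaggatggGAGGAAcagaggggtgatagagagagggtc
C1qc: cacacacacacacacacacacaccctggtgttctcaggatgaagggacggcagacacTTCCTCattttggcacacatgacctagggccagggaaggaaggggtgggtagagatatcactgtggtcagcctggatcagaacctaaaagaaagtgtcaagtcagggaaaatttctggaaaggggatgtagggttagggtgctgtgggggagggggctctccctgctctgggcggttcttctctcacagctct
Itgam: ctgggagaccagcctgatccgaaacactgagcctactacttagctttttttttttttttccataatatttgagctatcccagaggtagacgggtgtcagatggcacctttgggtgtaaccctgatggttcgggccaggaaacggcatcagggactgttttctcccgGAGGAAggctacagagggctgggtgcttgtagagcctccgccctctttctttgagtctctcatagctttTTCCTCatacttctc
Cx3cr1: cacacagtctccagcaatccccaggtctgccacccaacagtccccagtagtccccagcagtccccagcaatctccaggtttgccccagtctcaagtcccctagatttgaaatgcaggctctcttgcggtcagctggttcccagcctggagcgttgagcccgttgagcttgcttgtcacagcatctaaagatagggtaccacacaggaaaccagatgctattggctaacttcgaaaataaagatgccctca

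The letters begin 30 bases before the start of C1qb, 193 before that of C1qc, and 84 and 15 before that of Itgam, which holds 1 more within the 50 bases after its start. They are not in this window of Cx3cr1. In the full window, from 250 bases before to 50 after the start, 5 of the 7 matched promoters (C1qb, C1qc, Cd68, Itgam and Mrc1) held the letters on either strand. Of all 32851 RefSeq promoters of that length, 28.3% did. No other motif was searched in promoters, and a match of letters is not evidence of a bound site.

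Next come the receptors for bacterial products and glycans, and the proteins of lysosomes. Cd14 (ENSMUSG00000051439, chromosome 18, 36725067 to 36726798, minus strand), which presents lipopolysaccharide to TLR4, was at 66.1 and 42.6 CPM in the KO libraries, against 17.0 and 40.1 CPM in the WT libraries. KO replicate 2 and WT replicate 2 nearly met, and the log2 fold change was 0.93 (SE 0.46), which became 0.43 without WT replicate 1 and 1.71 without WT replicate 2. Lyz2 (ENSMUSG00000069516, chromosome 10, 117277331 to 117282321, minus strand), the lysozyme of phagocytes, was at 45.8 and 35.2 CPM in the KO libraries, against 16.7 and 36.0 CPM in the WT libraries. The genotypes overlapped, with WT replicate 1 alone low, and the log2 fold change was 0.62 (SE 0.39), which became 0.16 without WT replicate 1 and 1.31 without WT replicate 2. The closely related Lyz1 had 8 and 25 counts in the KO libraries and 2 and 19 in the WT libraries, and the sources used here do not say how reads shared by the pair were assigned.

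Mrc1 (ENSMUSG00000026712, chromosome 2, 14229392 to 14332057, plus strand), the mannose receptor of tissue macrophages, was at 7.63 and 9.08 CPM in the KO libraries, against 5.20 and 8.63 CPM in the WT libraries. WT replicate 2 stood between the KO libraries, with a log2 fold change of 0.27 (SE 0.29) that became -0.056 without WT replicate 1. Cd68 (ENSMUSG00000018774, chromosome 11, 69664213 to 69666153, minus strand), a glycoprotein of the lysosomes of macrophages, was at 9.27 and 12.6 CPM in the KO libraries, against 10.02 and 7.07 CPM in the WT libraries. It was the only gene of the set in which WT replicate 1 exceeded a KO library, and its log2 fold change was 0.36 (SE 0.26).

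The pattern of each gene over the 4 libraries was taken as log2 CPM minus the mean of the libraries. The median over the 10 genes was 0.56 in KO replicate 1 and 0.55 in KO replicate 2, against -0.76 in WT replicate 1 and -0.40 in WT replicate 2. WT replicate 1 was the lowest library for 6 of the 10 genes. C1qb lay nearest to that median, at a root mean square distance of 0.12, followed by C1qa (0.15), Csf1r (0.16), Cx3cr1 (0.20) and C1qc (0.24). Cd68 lay farthest (0.52), then Mrc1 (0.44), Cd14 (0.39), Lyz2 (0.37) and Itgam (0.35), the last with the signs of the median and values farther from zero in all 4 libraries. The highest library was KO replicate 1 for 4 genes (Itgam, Csf1r, Lyz2 and Cd14) and KO replicate 2 for the other 6.

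**Figure D2:**
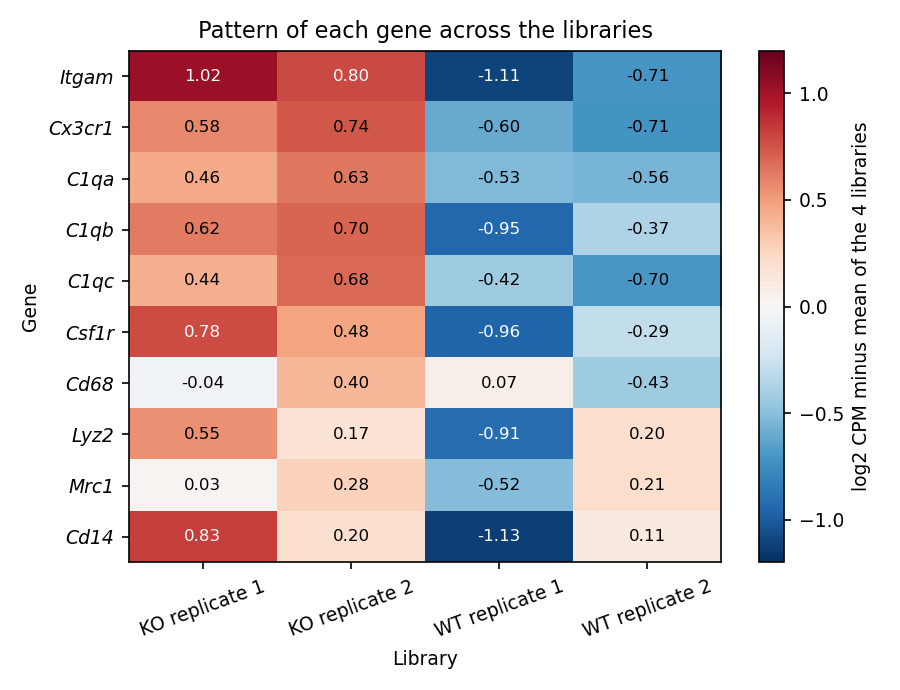
Log2 CPM of each gene minus its mean over the 4 libraries, with libraries in columns, genes in rows and the value written in each cell. Red cells fill the KO columns from Itgam to Csf1r, and WT replicate 1 holds the lowest values, at -1.13 for Cd14 and -1.11 for Itgam.

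Each sex held 1 KO and 1 WT library, which gave a value within each. Between the male libraries the difference in log2 CPM, KO minus WT, was positive for all 10 genes, and between the female libraries for 9, all but Mrc1. Itgam differed by 1.91 between males and 1.73 between females, and Cx3cr1 by 1.35 and 1.29. For C1qa the values were 1.16 and 1.02, for C1qb 1.64 and 0.996, for C1qc 1.11 and 1.14, and for Csf1r 1.44 and 1.07. They were 1.33 and 0.72 for Cd14, 1.08 and 0.35 for Lyz2, 0.80 and -0.18 for Mrc1, and 0.33 and 0.39 for Cd68. These values have 1 library per cell of the design and no test. The same libraries chose the set, which fixes these signs in part, so nothing is read from the counts of positive genes. The share of all genes that was positive within each sex is not given here.

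Across genes, levels were compared as CPM per kilobase of exon, counting all annotated exons of a gene. For C1qc these came to 1.93 kb, while its longest protein-coding transcript has 1203 bases. Its level and place in the orders below therefore depend on the length used. In the KO libraries the highest were Cd14 (31.4 ± 9.58 CPM per kilobase, SD, n = 2) and Lyz2 (30.8 ± 5.68), followed by C1qb (11.5 ± 0.408), C1qa (11.2 ± 0.956), Cd68 (8.69 ± 1.87), Csf1r (6.58 ± 0.966), C1qc (5.62 ± 0.673), Itgam (4.85 ± 0.536), Cx3cr1 (2.91 ± 0.236) and Mrc1 (1.31 ± 0.161). The libraries of neighbours in that order overlapped for Cd14 and Lyz2, for C1qb and C1qa, for Csf1r and C1qc, and for C1qc and Itgam. In the WT libraries the order on the same scale was Lyz2 (20.004 ± 10.4), Cd14 (16.5 ± 9.45), Cd68 (6.80 ± 1.66), C1qa (5.23 ± 0.0718), C1qb (4.69 ± 1.30), Csf1r (2.81 ± 0.909), C1qc (2.58 ± 0.345), Itgam (1.38 ± 0.273), Cx3cr1 (1.16 ± 0.0618) and Mrc1 (1.09 ± 0.380). There the overlaps were Lyz2 with Cd14, C1qa with C1qb, Csf1r with C1qc, Itgam with Cx3cr1, and Cx3cr1 with Mrc1. Both C1qa and C1qb stood below Cd68 in WT and above it in KO.

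The 8 pan-leukocyte genes all had positive log2 fold changes, with a median of 0.60 and a range of 0.15 for Ptprc to 0.94 for Rac2, a signalling gene of blood cells. Ptprc, which encodes the leukocyte antigen CD45, was at 86.8 and 69.6 CPM in the KO libraries, against 63.1 and 77.6 CPM in the WT libraries (log2 fold change 0.15, SE 0.17, edgeR adjusted p = 0.579). Taken as a percentage of the Ptprc level, Itgam stood at 30.3% and 32.3% in KO, against 9.47% and 10.2% in WT, and Csf1r at 48.3% and 48.9% in KO, against 19.8% and 25.7% in WT. Cx3cr1 stood at 14.3% and 19.9% in KO, against 8.63% and 6.504% in WT, and C1qa at 12.6% and 17.7%, against 8.70% and 6.94%. Cd68 overlapped, at 10.7% and 18.1% in KO and 15.9% and 9.11% in WT. In all, 8 of the 10 genes were above WT in both KO libraries on this scale, the exceptions being Cd68 and Mrc1, beside 18.5% of all genes tested. Relative to the summed CPM of 8 pan-leukocyte genes it was 5 of 10, namely Itgam, Cx3cr1, C1qa, C1qb and Csf1r, beside 8.01% of all genes tested. These counts too are fixed in part by the choice of the set, and nothing is read from them. On that scale C1qa was at 2.84% in KO replicate 1, against 2.76% in WT replicate 1.

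**Figure D3:**
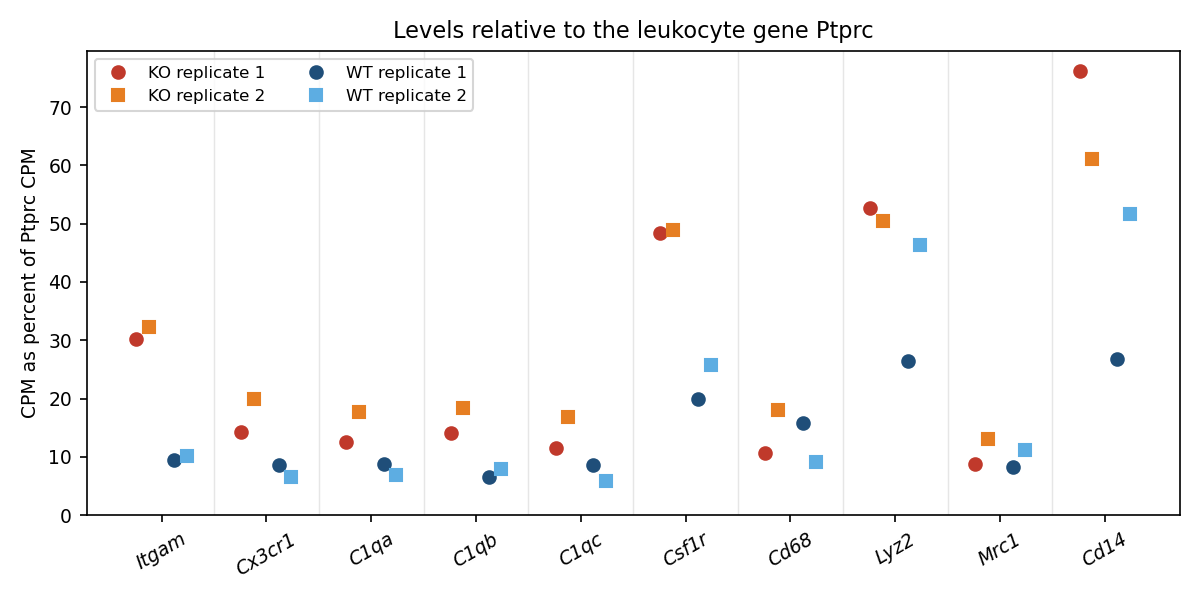
CPM of each gene as a percentage of the Ptprc CPM of the same library, on a linear axis, with 1 point per library. Itgam and Csf1r show the widest gap between KO and WT points, and the points of Cd68 and Mrc1 overlap.

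The ligands and partners of these proteins gave no call. Of 10 tested, none passed (edgeR), while 5 were higher and 1 lower at an unadjusted p under 0.05, 3 were higher by DESeq2 and none by limma-voom. Over all genes tested, 14.8% were higher and 15.7% lower at that unadjusted threshold, DESeq2 called 6.41% higher and 6.56% lower, and edgeR called 1.9% lower. Itgb2, the beta chain that pairs with the product of Itgam, was at 27.0 and 22.0 CPM in KO, against 11.5 and 16.6 CPM in WT (log2 fold change 0.80, SE 0.23, edgeR adjusted p = 0.101). Icam1, which encodes a ligand of Mac-1, was at 25.9 and 27.8 CPM in KO, against 2.55 and 10.02 CPM in WT (2.08, SE 0.63, edgeR adjusted p = 0.115). Both groups of libraries were separate for these genes, with WT replicate 1 the lowest.

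The growth factor gene Csf1 was at 6.70 and 6.24 CPM in KO, against 0.434 and 2.31 CPM in WT (log2 fold change 2.21, SE 0.73, edgeR adjusted p = 0.133). The other ligand gene of the same receptor, Il34, overlapped between genotypes, at 6.96 and 4.64 CPM in KO and 2.70 and 7.28 CPM in WT (0.21, SE 0.53). Cx3cl1, which encodes the membrane-bound ligand fractalkine of CX3CR1, was at 78.7 and 80.6 CPM in KO, against 66.9 and 74.3 CPM in WT (0.17, SE 0.11, edgeR adjusted p = 0.326).

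The proteases that C1q carries are encoded by C1ra and C1s1. C1ra was at 4.21 and 5.42 CPM in KO, against 1.69 and 2.90 CPM in WT (log2 fold change 1.06, SE 0.36, edgeR adjusted p = 0.135). C1s1 was at 1.82 and 9.35 CPM in KO, against 0.434 and 1.09 CPM in WT (2.85, SE 0.96, edgeR adjusted p = 0.137), and KO replicate 2 held most of it. For the co-receptors of Cd14, Tlr4 was at 24.9 and 23.6 CPM in KO, against 18.5 and 32.4 CPM in WT (-0.07, SE 0.28, or 0.090 with library size alone as the scaling), and Ly96 at 4.12 and 2.22 CPM in KO, against 6.74 and 6.14 CPM in WT (-1.02, SE 0.35, edgeR adjusted p = 0.137). Lbp, which carries lipopolysaccharide to CD14, ranged widely, at 47.4 and 11.4 CPM in KO and 0.915 and 24.03 CPM in WT (1.23, SE 1.40).

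Beyond the C1q chains, 18 of 30 complement genes, C1ra and C1s1 among them, passed the filter, and none was called by edgeR. At an unadjusted p under 0.05, 6 were higher and 2 lower, beside the 14.8% and 15.7% of all genes, with 2 higher and 1 lower by DESeq2 and none by limma-voom. Their median log2 fold change was 0.21, with 10 positive and 8 negative. Factor B (Cfb) was at 173 ± 3.44 CPM in KO and 226 ± 44.8 CPM in WT (SD, n = 2 each; log2 fold change -0.38, edgeR adjusted p = 0.216). The decay-accelerating factor gene Cd55 was at 53.0 ± 1.04 CPM in KO and 83.8 ± 41.1 CPM in WT (-0.66, edgeR adjusted p = 0.275). Among genes chosen after their values were seen, C3, the central component, was at 74.9 and 80.2 CPM in KO, against 7.18 and 29.9 CPM in WT (2.06, SE 0.66, edgeR adjusted p = 0.128), and C2 was at 5.90 and 4.48 CPM in KO, against 10.6 and 11.7 CPM in WT (-1.10, SE 0.21, edgeR adjusted p = 0.0572). C3ar1, the receptor for the C3a fragment, was at 3.10 and 4.21 CPM in KO, against 1.54 and 1.52 CPM in WT (1.26, SE 0.31, edgeR adjusted p = 0.0802). Complement genes therefore lay on both sides of zero.

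Among 27 other macrophage genes, 21 were tested and 1 rose, which is near the share called over all genes, with none called lower. At an unadjusted p under 0.05, 11 were higher and 3 lower, beside the 14.8% and 15.7% of all genes. The 1 was Apoe, the apolipoprotein of lipid-laden macrophages that other cells also make, at 113 and 110 CPM in KO, against 33.5 and 50.5 CPM in WT (log2 fold change 1.41, SE 0.22, edgeR adjusted p = 0.0486). That call was lost with relative log expression factors. The list had a median of 1.17, with 17 positive and 4 negative values. Adgre1, which encodes the macrophage antigen F4/80 and was picked with its values in view, was at 5.85 and 5.73 CPM in KO, against 2.75 and 3.41 CPM in WT (0.91, SE 0.23, edgeR adjusted p = 0.0835). Among the negative members were Lyve1 (-0.96), the protease gene Ctss (-0.74) and the phagocytic receptor gene Mertk (-0.68). The WT mean of Ctss was 356 CPM, above that of the leukocyte gene Ptprc (70.4 CPM). Which cells the Ctss transcripts came from was not tested.

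The median log2 fold change of 9 monocyte genes tested was 1.13, with 8 positive values and 1 negative. Of 10 transcription factors that specify myeloid cells, 1 rose and 2 fell (edgeR), beside 1.72% higher and 1.9% lower of all genes tested. Counts at an unadjusted p under 0.05 were 3 higher and 3 lower, beside 14.8% and 15.7% of all genes. DESeq2 called 2 higher and 3 lower, beside 6.41% and 6.56% of all genes, and limma-voom called 1 higher and 2 lower. Irf8 rose, at 76.8 and 67.3 CPM in KO, against 43.8 and 43.0 CPM in WT (log2 fold change 0.73, SE 0.11, edgeR adjusted p = 0.0472). Cebpa fell, at 42.5 and 42.7 CPM in KO, against 80.2 and 110 CPM in WT (-1.16, SE 0.18, edgeR adjusted p = 0.0472). In WT the Cebpa mean of 95.1 CPM exceeded those of Ptprc (70.4 CPM) and Spi1 (4.27 CPM). Which cells the Cebpa transcripts came from was not tested. Nr1h3, the lipid-sensing receptor LXR alpha, fell at 6.92 and 5.81 CPM in KO, against 14.2 and 13.1 CPM in WT (-1.10, SE 0.17, edgeR adjusted p = 0.0469). Spi1, chosen after its values were seen, was at 9.75 and 8.50 CPM in KO, against 3.04 and 5.51 CPM in WT (1.09, SE 0.33, edgeR adjusted p = 0.112). The calls of Apoe, Irf8, Cebpa and Nr1h3 ended without KO replicate 1, without KO replicate 2 and with mitochondrially encoded genes left out. Those of Irf8 and Cebpa also ended with relative log expression factors.

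**Figure D4:**
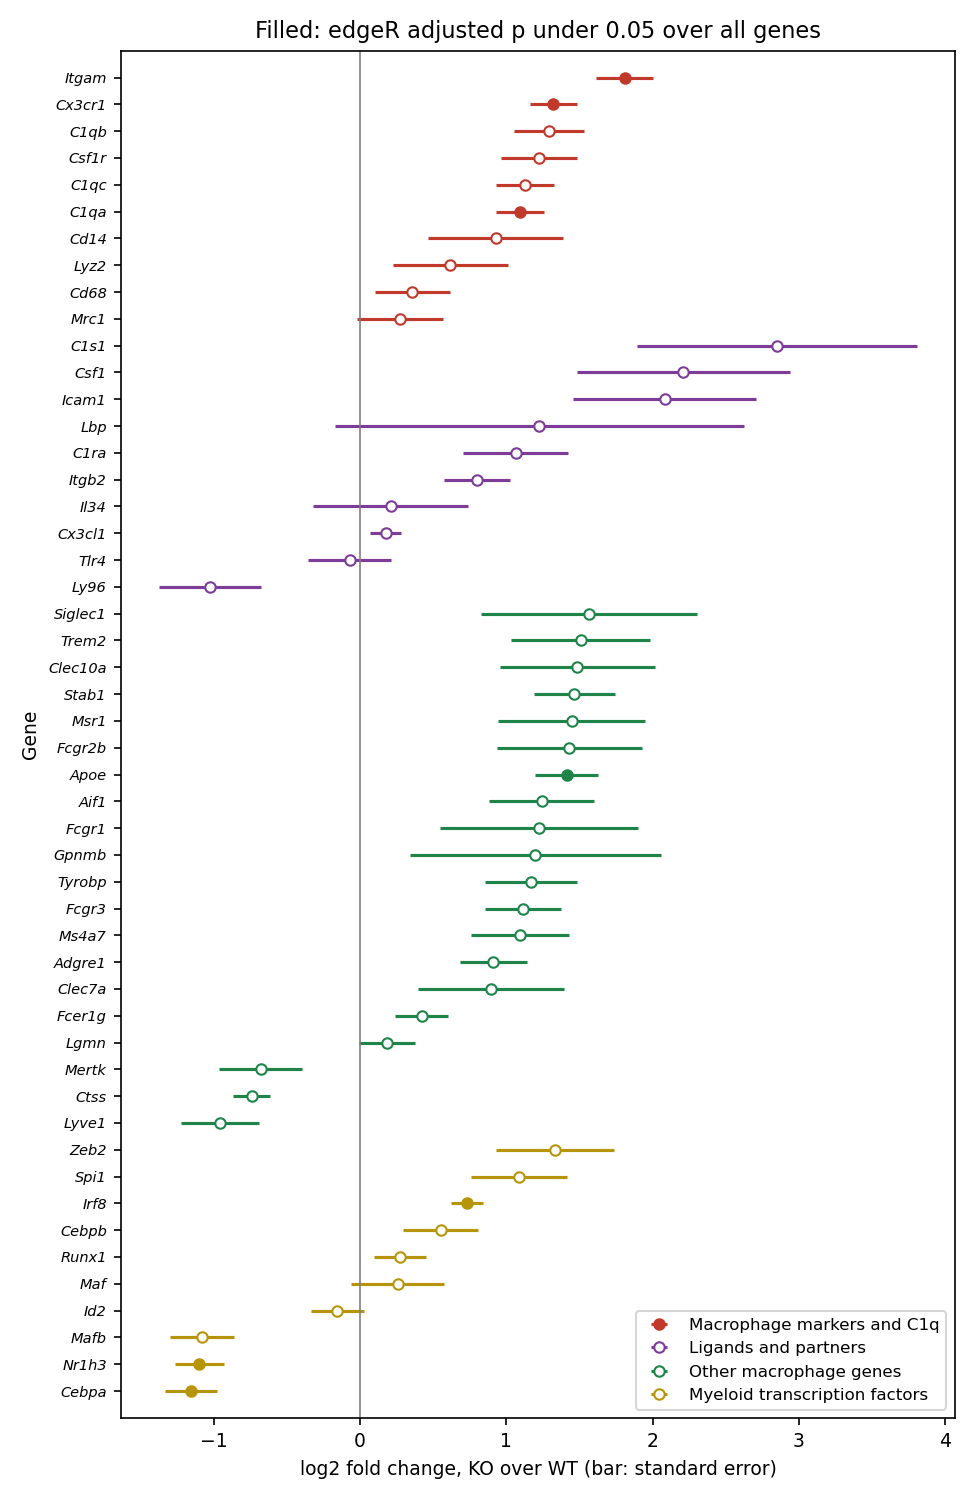
Log2 fold change, KO over WT, with its standard error, for the 10 macrophage and C1q genes and for tested genes of 3 lists, ordered within each list. Filled points passed the edgeR test over all genes: Itgam, Cx3cr1, C1qa, Apoe and Irf8 above zero, and Nr1h3 and Cebpa below it.

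The cell type label was checked against markers. All 10 colonic epithelial markers were detected, with a summed level of 7081 and 6638 CPM in KO, against 8107 and 9466 CPM in WT. Krt8, the keratin of simple epithelia, was at 2102 ± 211 CPM in KO and 2814 ± 615 CPM in WT (SD, n = 2 each; log2 fold change -0.42). Leukocyte transcripts were present in every library, with a pan-leukocyte sum of 384 and 297 CPM in KO, against 199 and 267 CPM in WT. The 10 genes of the set summed to 242 and 207 CPM in KO, against 87.8 and 141 CPM in WT.

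No gene of the 10 marker lists was called (edgeR). At an unadjusted p under 0.05, 5 of 8 pan-leukocyte and 4 of 10 dendritic cell genes tested were higher. So were 1 of 10 T cell, 1 of 10 B and plasma cell, 1 of 6 fibroblast, 1 of 3 endothelial and 1 of 10 epithelial genes, beside 14.8% of all genes, while 3 of 10 epithelial genes were lower, beside 15.7%. DESeq2 called 1 pan-leukocyte, 4 dendritic cell, 1 T cell, 1 fibroblast and 1 endothelial gene higher and 2 epithelial genes lower, and limma-voom called none. Dendritic cell markers summed to 117 and 91.6 CPM in KO, against 43.5 and 63.3 CPM in WT. All 10 had positive log2 fold changes (median 1.07). Itgax, which dendritic cells share with macrophages, was at 34.2 and 26.0 CPM in KO, against 10.7 and 16.7 CPM in WT. Endothelial markers summed to 15.0 and 15.0 CPM in KO, against 6.02 and 9.09 CPM in WT. The summed neutrophil markers overlapped, at 142 and 100 CPM in KO and 43.1 and 151 CPM in WT. Elane was at 0 in every library. Most of that sum was Ly6g, a gene of a family with close relatives. It was at 90.1 and 87.0 CPM in KO and 38.2 and 129 CPM in WT (log2 fold change 0.09). All 7 neutrophil genes tested had positive log2 fold changes (median 1.12), none of them at an unadjusted p under 0.05 (edgeR). B and plasma cell markers also overlapped, at 88.1 and 64.8 CPM in KO and 36.4 and 85.9 CPM in WT.

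The summed T cell markers lay close together, at 76.7 and 66.2 CPM in KO and 64.3 and 58.2 CPM in WT. Of the T cell genes, 7 had positive and 3 negative log2 fold changes. The largest, picked with its values in view, was that of Cd4 (1.30, SE 0.35, edgeR adjusted p = 0.0901). The summed mast cell markers also lay close together, at 5.45 and 5.88 CPM in KO and 6.07 and 6.23 CPM in WT. KO replicate 2 alone was high in fibroblast markers, at 565 CPM against 65.8 CPM in KO replicate 1 and 52.6 and 75.9 CPM in WT. It was high in erythroid markers too, at 6681 CPM against 1353 CPM in KO replicate 1 and 1976 and 2736 CPM in WT. The most abundant fibroblast and erythroid markers, Col3a1 and Hbb-bs, were at 34.2 and 308 CPM and at 567 and 2794 CPM in KO, against 27.2 and 38.9 CPM and 809 and 1124 CPM in WT. Without that library the median log2 fold change of the 10 genes was 1.12, and without KO replicate 1 it was 1.11. Without WT replicate 1 it was 0.97, and without WT replicate 2 it was 1.31. The part of dendritic, endothelial and other leukocyte transcripts in the values of the set was not tested.

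**Figure D5:**
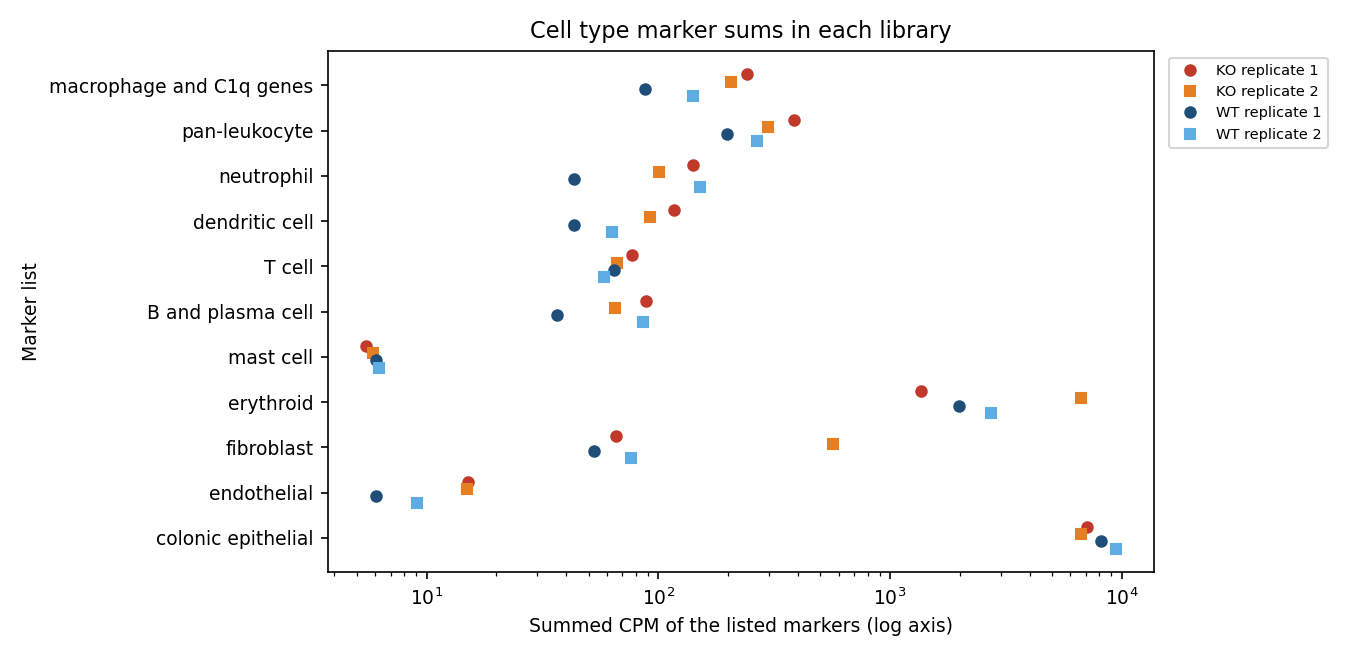
Summed CPM of the 10 macrophage and C1q genes and of each cell type marker list in each library, on a log axis, with 1 point per library. KO points lie above WT points for the macrophage and C1q genes, pan-leukocyte, dendritic, T cell and endothelial lists, while KO replicate 2 alone stands out for erythroid and fibroblast markers.

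Outside the set, the 5 genes with a mean of at least 5 CPM whose centred log2 CPM lay nearest to its median, among 10047 genes and over 4 libraries, were AW209491, Ppfia4, Cdca4, Aldh3b1 and Zfhx3, at root mean square distances of 0.03 to 0.05. Cdca4, a gene of cell division, rose, at 22.6 ± 0.621 CPM in KO and 10.5 ± 1.41 CPM in WT (SD, n = 2 each). AW209491 was at 10.7 ± 0.210 CPM in KO and 5.04 ± 0.790 CPM in WT, without a call. With 4 libraries many genes share such a pattern, and the likeness is a description.

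The letters GGACT, the commonest form of the sequence in which the METTL3 and METTL14 complex methylates adenosine, were counted in the longest protein-coding GENCODE M21 transcript of each gene. The 10 genes had a median of 1.69 per kilobase, beside a median of 1.05 (quartiles 0.649 and 1.53) over 13532 tested protein-coding genes. C1qa had 3 in 1040 bases, C1qb 3 in 1088, C1qc 2 in 1203, Lyz2 3 in 1316 and Cd14 4 in 1641. Itgam, with the highest log2 fold change of the set, had 3 in 4682 bases, or 0.641 per kilobase, the lowest density of the 10. Such letters mark no measured methylation, which was not analysed here.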

How the data were processed

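RNA of primary colonic epithelial cells was sequenced in 2 KO and 2 WT libraries. The deposited table holds whole-number counts per gene, not normalised, as the values show. Per the submitters' processing notes, FastQC 0.11.2, STAR 2.4.2a, RSEM 1.2.29 and mm10 were used, without their roles. The sources used here do not give the annotation, strand handling or any rounding of estimated values. Genotype labels gave the groups, and replicate numbers follow accession order. Each title also holds a number of its own, but no label says that libraries are separate animals, so p-values measure the spread between these samples.

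Genes were filtered with filterByExpr, scaled with TMM factors and tested with edgeR 4.0.16 (R 4.3.3; quasi-likelihood F-test, legacy and robust, two-sided, Benjamini-Hochberg over 14861 genes, threshold 0.05), which was also tested on simulated data. The design leaves 2 residual degrees of freedom. SE is the absolute log2 fold change divided by the root of F. Log2 CPM used an offset of 0.5 counts, and binomial intervals scipy 1.17.1. Identifiers matched GENCODE M21 (GRCm38) for 99.56% of 50600 genes, which gave coordinates and exon lengths. Alternatives were other scaling, filters, DESeq2 1.42.0, limma-voom (limma 3.58.1), sex as a covariate, mitochondrial genes left out and each library left out.

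The genes and lists were chosen with earlier results of these data known. Named genes are the 10 genes, their partners, Mettl14, Ptprc, up to 4 called genes of each other list (3 of a marker list) or its most abundant where none was called, and the 5 nearest by pattern. Those said to be chosen after their values were seen, the negative members named of the other macrophage list, Ephb2, Epha8 and Lyz1 lie outside that rule. Some genes that the rule or the lists hold are not reported here.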

Additional observations from a re-analysis of the deposited data

Results flagged for a closer look

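Each sex held 1 KO and 1 WT library. For 6 of the genes named by the rule given above, the KO library was above the WT library in one sex and below it in the other. Genes outside that rule, such as Lyz1, were not counted. These differences rest on single libraries and were not tested. In log2 CPM, KO minus WT, Mrc1 differed by 0.80 between the male libraries and -0.18 between the female ones. Il34 stood at 0.77 and -0.064, and Tlr4 at 0.35 and -0.38. Ly6g stood at 1.19 between males and -0.51 between females. The haemoglobin gene Hbb-bs stood at 1.79 and -0.99, and the collagen gene Col3a1 at 3.504 and -0.19. The male pair holds KO replicate 2, high in fibroblast and erythroid transcripts, and WT replicate 1, low in leukocyte transcripts, so sex and these libraries cannot be told apart.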

How the results depend on the processing

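Counts of calls moved widely with the processing. All genes called numbered 537, and 1632 with no filter, 1927 by DESeq2, 1409 with sex as a covariate, 348 with mitochondrially encoded genes left out and 0 to 2290 with 1 library left out, 0 being reached without KO replicate 1 (2257 at an unadjusted p under 0.05) and without KO replicate 2 (1987). Library size alone as the scaling gave 790 calls, 76.5% of them higher against 47.5%, with the median log2 fold change of all genes at 0.15. Of the 10 macrophage and C1q genes, 3 were called, and 6 with library size alone, 5 with no filter, 6 by DESeq2, 7 with sex as a covariate and 0 to 7 with 1 library left out. Of the other macrophage genes 1 was called higher, and 0 with relative log expression factors or without mitochondrially encoded genes, 2 with library size alone, 3 with no filter, 4 by DESeq2, 3 with sex as a covariate and 0 to 4 with 1 library left out. Of the complement genes 0 were called higher, and 1 with no filter, 2 by DESeq2, 1 with sex as a covariate and 0 to 4 with 1 library left out. The cause was not tested.

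Itgam stayed between log2 fold changes of 1.61 and 2.06 over the 12 alternatives, Cx3cr1 between 1.26 and 1.49, and C1qa between 1.02 and 1.27. With library size alone, Tlr4 moved to 0.090 and Lck to 0.041. With 1 library left out, log2 fold changes ranged from -0.056 to 0.72 for Mrc1, -0.028 to 0.34 for Ptprc, -0.15 to 5.03 for Lbp, -0.34 to 1.13 for Il34, -0.43 to 0.42 for Tlr4, -0.55 to 1.24 for Ly6g, -0.0093 to 0.95 for Ighm and -0.75 to 1.52 for Hbb-bs. Of all values of single named genes under the alternatives, 413 kept direction and side of the threshold, 63 passed it newly, 29 ceased to pass and 11 changed sign. No paired analysis was possible because the labels give no replicate numbers shared between genotypes, so the nearest fit is the one above with sex, read from the data, as a covariate. With 2 libraries per genotype, 2 residual degrees of freedom limit what could be called.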
